A study of Homo sapiens with 8 samples.

Results

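Of 43569 accessible regions found by ATAC-seq in HUDEP-2 cells, 1729 lay away from gene starts and carried an AP-1 word near their summit but no GATA word, and these are the regions described here. HUDEP-2 is an established human erythroid precursor line. ATAC-seq reads out open chromatin through cuts made by the Tn5 transposase. Both groups carried the control guide (sgControl) of a CRISPR interference experiment, with KRAB-dCas9 delivered by lentivirus and cells sorted as a GFP-positive population. Both were starved of growth factors for 5 h and then received either 50 ng/ml stem cell factor (SCF), the ligand of the Kit receptor, or PBS for 1 h, with 50000 cells and biological duplicates per condition. The 4 sgEGR1 samples were not analysed here. The comparison asks what acute Kit activation does to accessibility at regions that hold the AP-1 word near the summit without the GATA word searched there. Other forms of the GATA site were not excluded, and the bare core GATA occurred in the windows of 831 members.

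Members were found as follows. The 4 peak lists were merged wherever peaks shared 1 bp, and the summit of a region was that of its highest-ranked peak. A region was distal when its summit lay over 1 kb from every annotated transcript start. The AP-1 word was TGANTCA and the GATA word was AGATAA or TGATAA, both searched on both strands within 100 bp of the summit on either side. Of the 25888 distal regions, 2974 had the AP-1 word, of which 1729 lacked the GATA word and 1245 had both. Another 8179 distal regions had the GATA word alone and 14735 had neither. Over all 43569 regions the AP-1 word was present in 8.43% and the GATA word in 25.4%. A word match is a description of the sequence and not evidence of a bound factor.

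AP-1 is a family of dimers of FOS, JUN and ATF proteins, which share a basic leucine zipper that grips a palindrome. Many of its genes are immediate early genes, switched on within minutes when a receptor tyrosine kinase such as Kit activates the MAPK cascade. In erythroid cells the same core is also read by dimers of NF-E2 or BACH proteins with small MAF partners, which favour a form extended by TGC on one side. GATA1 and GATA2 are zinc finger factors that mark most erythroid enhancers.

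Stretches of 6 regions show the word in its surroundings. They were taken from the regions with the widest gain or loss of rank with SCF and from the strongest one. Each runs from 100 bp before the summit to 100 bp after it, plus strand of hg19, in lower case with AP-1 words in capitals.
RAP1A (chr1:112135583-112135783): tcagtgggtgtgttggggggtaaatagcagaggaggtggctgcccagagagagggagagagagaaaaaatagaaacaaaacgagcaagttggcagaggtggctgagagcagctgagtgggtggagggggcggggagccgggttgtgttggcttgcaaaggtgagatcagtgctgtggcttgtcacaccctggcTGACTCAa
ITGB3 (chr17:45365964-45366164): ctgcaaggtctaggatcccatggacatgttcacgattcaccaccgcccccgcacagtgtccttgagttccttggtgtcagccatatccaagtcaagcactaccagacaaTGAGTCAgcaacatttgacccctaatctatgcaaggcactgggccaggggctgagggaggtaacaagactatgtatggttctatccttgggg
STXBP5 (chr6:147483220-147483420): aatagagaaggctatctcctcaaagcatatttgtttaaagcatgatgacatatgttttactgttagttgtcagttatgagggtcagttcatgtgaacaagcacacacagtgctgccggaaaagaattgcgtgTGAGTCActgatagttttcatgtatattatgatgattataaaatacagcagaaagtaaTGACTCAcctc
MIDEAS (chr14:74208320-74208520): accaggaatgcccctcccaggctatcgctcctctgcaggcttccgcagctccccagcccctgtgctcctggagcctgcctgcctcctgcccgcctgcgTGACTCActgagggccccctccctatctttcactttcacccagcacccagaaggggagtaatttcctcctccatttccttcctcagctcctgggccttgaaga
DNAJB12 (chr10:74068293-74068493): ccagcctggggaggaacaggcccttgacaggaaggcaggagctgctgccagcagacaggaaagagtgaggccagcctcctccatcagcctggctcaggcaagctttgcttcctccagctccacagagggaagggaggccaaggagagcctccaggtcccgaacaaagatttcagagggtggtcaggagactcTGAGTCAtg
NTN5 (chr19:49164250-49164450): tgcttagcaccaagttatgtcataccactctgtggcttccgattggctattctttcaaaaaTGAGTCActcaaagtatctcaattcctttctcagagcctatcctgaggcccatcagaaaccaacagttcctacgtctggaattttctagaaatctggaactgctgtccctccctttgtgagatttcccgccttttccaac

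Each region is named here by the nearest protein-coding start, which does not say that it acts on that gene. The first 4 of these regions gained rank with SCF, the DNAJB12 region lost rank, and the NTN5 region was the strongest member in all libraries. The word lay 1 bp from the summit in the MIDEAS region and 12 bp from it in the ITGB3 region, but 96 bp away in the RAP1A region. In the ITGB3 region the word was of the extended type. The STXBP5 region held 2 words.

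A further set of 31-base stretches, centred on the word nearest the summit, shows its middle base, which was C or G in the first 6 and A or T in the last 4. The first 4 gained rank with SCF, NPTN and AKIRIN2 were called only with SCF, NDFIP1, WTIP and H4C13 lost rank, and CMPK2 was among the strongest.
CRTAM (chr11:122727607-122727637): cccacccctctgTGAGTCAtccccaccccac
MTAP (chr9:21789795-21789825): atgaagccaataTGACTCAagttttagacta
ABCC4 (chr13:95895509-95895539): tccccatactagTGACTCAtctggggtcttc
BACH2 (chr6:91078885-91078915): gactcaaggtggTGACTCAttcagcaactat
NPTN (chr15:73856838-73856868): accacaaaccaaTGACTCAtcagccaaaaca
AKIRIN2 (chr6:88466790-88466820): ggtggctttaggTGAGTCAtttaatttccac
NDFIP1 (chr5:141524859-141524889): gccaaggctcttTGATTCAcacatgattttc
WTIP (chr19:34992491-34992521): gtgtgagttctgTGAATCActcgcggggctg
H4C13 (chr6:27848013-27848043): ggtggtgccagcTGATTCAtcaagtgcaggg
CMPK2 (chr2:6987369-6987399): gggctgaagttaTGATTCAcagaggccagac

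The peak lists do not give the number of reads. Depth relative to PBS replicate 1, recovered from the background pileup, ranged from 0.843 in SCF replicate 2 to 1.42 in PBS replicate 2, so that both SCF libraries were the shallower ones. Lists held 29269 to 33616 peaks, and replicate 2 was the longer list in both treatments. Start sites of 10 of 12 erythroid marker genes were called in all 4 libraries, as were 1 of 4 lymphoid, 3 of 4 myeloid and 0 of 4 hepatic and muscle markers. The labels give separate replicates, and p-values measure only the spread between these libraries. An exact permutation test of 2 libraries against 2 cannot give a p-value below 0.333, so differences of a single value between treatments are given with the values of each library.

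AP-1 words with C or G in the middle were denser at distal summits after SCF, whereas AP-1 words with A or T in the middle and GATA words changed far less. This was measured at each library's own distal summits, independently of the choice of members. Within 100 bp of the summit there were 0.444 and 0.435 words with C or G per kb with PBS, and 0.594 and 0.569 with SCF. The treatments did not overlap, with means of 0.440 ± 0.00614 and 0.582 ± 0.0182 words per kb (SD, n = 2 each), a ratio of 1.32. For words with A or T the values were 0.156 and 0.157 with PBS and 0.166 and 0.164 with SCF, a ratio of 1.05. For the GATA word they were 2.70 and 2.69 with PBS and 2.73 and 2.75 with SCF, a ratio of 1.02. All 3 words were somewhat denser in both SCF libraries, but the difference was 0.142 per kb for C or G, 0.00857 for A or T and 0.0472 for GATA. With an equal number of the strongest peaks from each list, the difference for C or G was 0.145, and the GATA values overlapped between treatments.

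Further out the order changed. At 101 to 150 bp both SCF libraries were still higher (0.473 and 0.491 against 0.442 and 0.465 words with C or G per kb). At 151 to 200 bp both were lower (0.343 and 0.364 against 0.383 and 0.375), as they were in the next 50 bp and at 401 to 450 bp. Over 301 to 500 bp as a whole the treatments overlapped, where words with C or G had a density of 0.186 and 0.176 per kb with PBS and 0.178 and 0.173 with SCF. Within 100 bp of the summit their density was therefore 2.39 and 2.48 times the flanking density with PBS, and 3.33 and 3.29 times with SCF. Words with A or T were hardly concentrated at the summit in any library, at 1.14 to 1.28 times the flank. The GATA word was concentrated 2.32 to 2.44 times. Among the distal regions called only with SCF, words with C or G reached 0.981 per kb, against 0.323 in those called only with PBS. All distal regions had 0.488. In the same order, words with A or T had 0.215, 0.133 and 0.166 per kb, and the GATA word 2.01, 2.48 and 2.53.

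**Figure D1:**
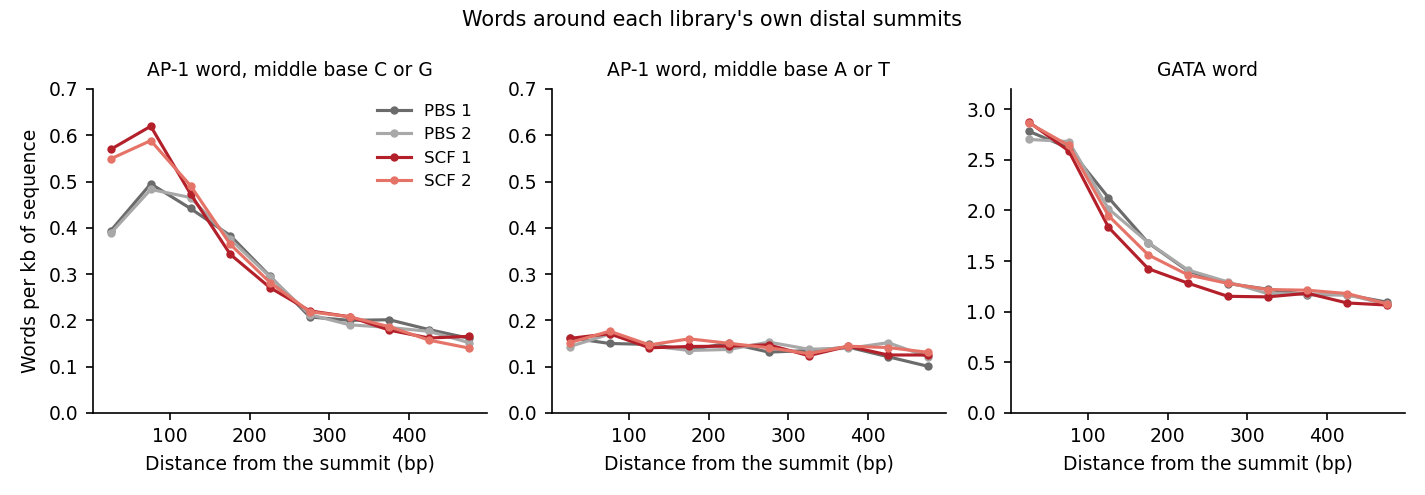
Words per kb of sequence (vertical axes, which differ for the GATA word) against distance from the summit in bp, in bins of 50 bp on both sides together, for the distal peaks of each of the 4 libraries. For the AP-1 word with C or G in the middle, both SCF libraries lie above both PBS libraries within 100 bp of the summit (0.594 and 0.569 against 0.444 and 0.435 per kb), and from 151 to 250 bp they lie below them.

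Of the 1943 AP-1 words in the members' windows, 1470 (75.7%) had C or G in the middle and 473 (24.3%) had A or T. Only words with C or G occurred in 1277 members, only words with A or T in 401, and both kinds in 51. One word was present in 1544 members, 2 words in 165, and 3 or more in 20. Inside the window the words showed no peak at the summit itself, with 68 to 118 words in each bin of 10 bp. The word nearest the summit lay within 20 bp of it in 359 members.

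Members were found on all 24 chromosomes. They lay in introns in 60.3% of cases, between genes in 32.7% and in exons in 7.1%, which are nearly the shares of all distal regions (60.2%, 32.6% and 7.2%). The median distance to the nearest start was 8.16 kb for members and 8.11 kb for all distal regions. Their median width was 483 bp against 488 bp, and the median GC content of the window was 49.3% against 48.8%. In position, width and base composition, members were thus close to distal regions at large. Members stood between the distal regions with a GATA word, whose median GC content was 44.8% without and 43.8% with AP-1, and those with neither word, at 52.2%.

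Other words in the same window were counted in the same way. The extended word, TGC before the AP-1 word, was present in 199 members (11.5%) and in 7.87% of distal regions with both words. The EGR word GCGTGGG, that of the zinc finger factors of the immediate early response, was present in 47 members (2.72%). It was in 0.72% of distal regions with both words, in 1.05% of those with GATA alone and in 2.64% of those with neither word. Of all distal regions 2.05% had it, and of all regions 3.80%. Its share in members was thus close to that in the distal regions with neither word. The RUNX word TGTGGT was in 15.5% of members, 15.5% of distal and 12.4% of all regions, and the ETS word GGAAGT in 12.0%, 12.2% and 13.3%. The E-box CAGATG, which TAL1 complexes read, was in 18.6%, 17.5% and 13.7%, so that for these 3 words members were close to distal regions at large. The bare GATA core, which every GATA word contains, still occurred in 831 members (48.1%), against 43.1% of distal regions with neither word. The shares of 64.1% of distal and 50.5% of all regions include regions chosen to hold a GATA word, so members were bound to differ from them. A full GATA word lay elsewhere in the region, outside the window, in 588 members.

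Most members were called in some libraries and not in others. All 4 libraries called 559 members (32.3%), against 35.2% of distal and 51.3% of all regions. A single library called 624 members (36.1%), the same share as for distal regions at large. The lists of the PBS libraries called 901 and 1093 members and those of the SCF libraries 987 and 1216, and the treatments overlapped. As a share of the distal regions each library called, members made up 6.04% and 6.21% with PBS and 7.03% and 6.96% with SCF. These shares did not overlap, with 6.12 ± 0.120% for PBS and 6.996 ± 0.0464% for SCF (mean and SD, n = 2 each).

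Members were called only with SCF more often than only with PBS. Both SCF lists and neither PBS list called 80 members (4.63%), against 2.23% of distal and 1.65% of all regions. The reverse, called in both PBS lists and in neither SCF list, held for 42 members (2.43%), against 3.04% of distal and 2.37% of all regions. Regions without the AP-1 word went the other way, with 139 called only with SCF and 253 only with PBS among those with GATA alone, and 320 and 472 among those with neither word. Distal regions with both words had 39 and 19. The counts turned round without PBS replicate 1, where a PBS-only call asks for a single list and an SCF-only call still for both. Then 131 members were SCF-only (7.58%, against 3.91% of distal regions) and 225 PBS-only (13.0%, against 14.6%). Of the latter, 183 were called in PBS replicate 2 alone. That list is also the deepest, and the part of depth was not tested. Against distal regions, members had the higher share of SCF-only and the lower share of PBS-only calls whichever library was left out. Absence from a list means only that no peak passed the threshold at that depth.

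Accessibility was next compared among the 559 members called in all 4 libraries, by percentile rank. The rank places the fold enrichment of a peak among all peaks of its own list, with 100 as the highest, and fold enrichment is the pileup of fragments at the summit over the local background. The median rank of members was 45.9 and 49.9 points with PBS and 52.3 and 56.9 with SCF, and the treatments did not overlap. The means were 47.9 ± 2.81 and 54.6 ± 3.23 points (SD, n = 2 each). The regions with GATA alone had 54.5 and 59.1 with PBS and 52.7 and 60.3 with SCF, and those with neither word had 46.6 and 51.8, and 44.6 and 50.9, so that both overlapped. In all these classes replicate 2, the longer list, ranked higher than replicate 1.

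**Figure D2:**
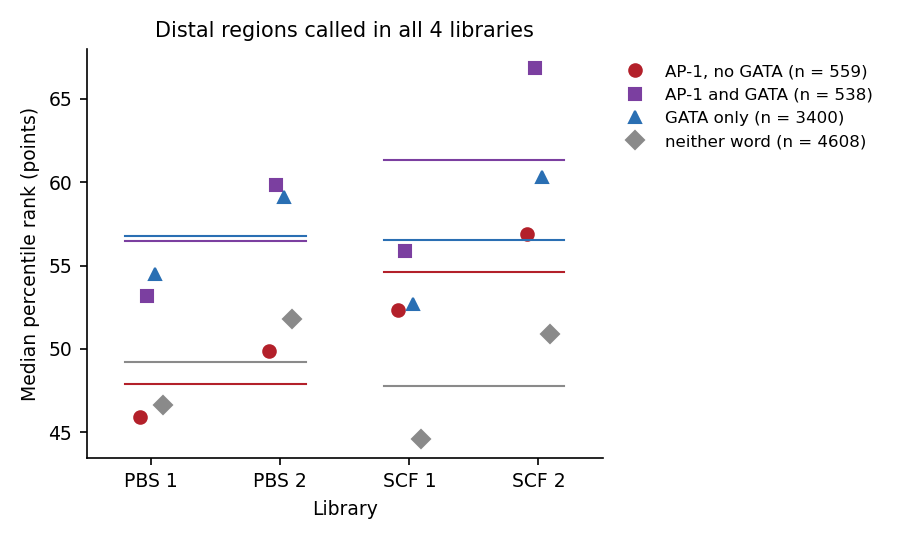
Median percentile rank of fold enrichment (points, vertical axis, which does not start at 0) in each library (horizontal axis) for the 4 classes of distal regions called in all 4 libraries, with a line at the mean of each treatment. Members (circles) were at 45.9 and 49.9 with PBS and at 52.3 and 56.9 with SCF, and the other 3 classes overlapped between treatments.

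The difference between the mean SCF rank and the mean PBS rank had a median of 3.67 points over members (quartiles −3.33 and 12.7), against 0.0948 over distal regions and −0.534 over all regions called in all 4 libraries. It was positive in 350 members (62.6%) and in 50.5% of distal regions. For regions with both words the median was 5.55 points, for those with GATA alone 0.520, and for those with neither word −0.863. The presence of the AP-1 word thus went with a higher rank after SCF with and without the GATA word, and the 2 AP-1 classes were not tested against each other. Without PBS replicate 1 the median over members was 1.91 points, without SCF replicate 2 it was 1.85, and without SCF replicate 1 it was 6.50. The median over all distal regions moved alike, and members lay 3.46 to 4.27 points above it whichever library was left out, against 3.57 with all 4.

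A rank gain was called when the lower SCF rank exceeded the higher PBS rank by at least 10 points, and a rank loss in the reverse case. Rank was gained by 58 members (10.4%), against 4.56% of distal and 2.56% of all regions called in all 4 libraries. Rank was lost by 10 members (1.79%), against 4.18% of distal and 3.04% of all such regions. With no minimum gap, both SCF ranks lay above both PBS ranks in 165 members (29.5%, against 18.3% of distal regions), and below them in 54 (9.66%, against 16.9%). The narrowest gap counted as a gain was 10.05 points and the widest that was not was 9.98. Regions with both words had 51 gains and 8 losses among 538 (9.48% and 1.49%). With 1 library left out a gain asks less, and counts rose to between 96 and 177. The 96 gains came without SCF replicate 2 (16.1% of members, against 9.26% of distal regions), with 77 losses (12.9%, against 19.3%). The 177 gains came without SCF replicate 1 (28.0%, against 17.3%), with 50 losses (7.90%, against 9.79%).

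**Figure D3:**
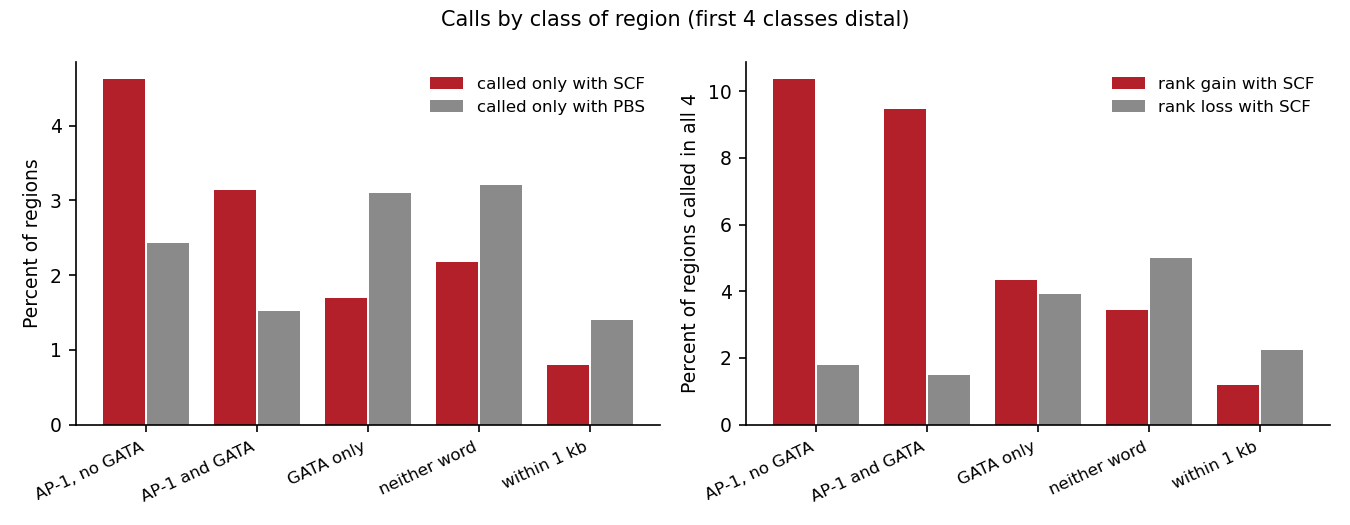
Percent of regions called only with SCF or only with PBS (left), and percent with a rank gain or loss among those that all 4 libraries called (right), for the 4 distal classes and for regions within 1 kb of a start. In members 4.63% were called only with SCF and 2.43% only with PBS, and 10.4% gained and 1.79% lost rank, while the regions with neither word had more PBS-only calls and losses.

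Gains fell mostly on members of middling strength. By mean rank over the 4 libraries, 28 of 206 members between 40 and 60 points gained rank (13.6%, against 4.67% of other distal regions of that strength), and 0 lost it. Between 20 and 40 points 18 of 151 gained (11.9%, against 5.72%), and between 60 and 80 points 10 of 135 (7.41%, against 3.12%). In the strongest bin 1 of 41 gained (2.44%, against 1.60%) and 0 lost. The weakest bin went the other way, with 1 gain (3.85%, against 4.06%) and 2 losses (7.69%, against 2.21%) among 26 members. Ranks near 0 or 100 have little room to move.

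**Figure D4:**
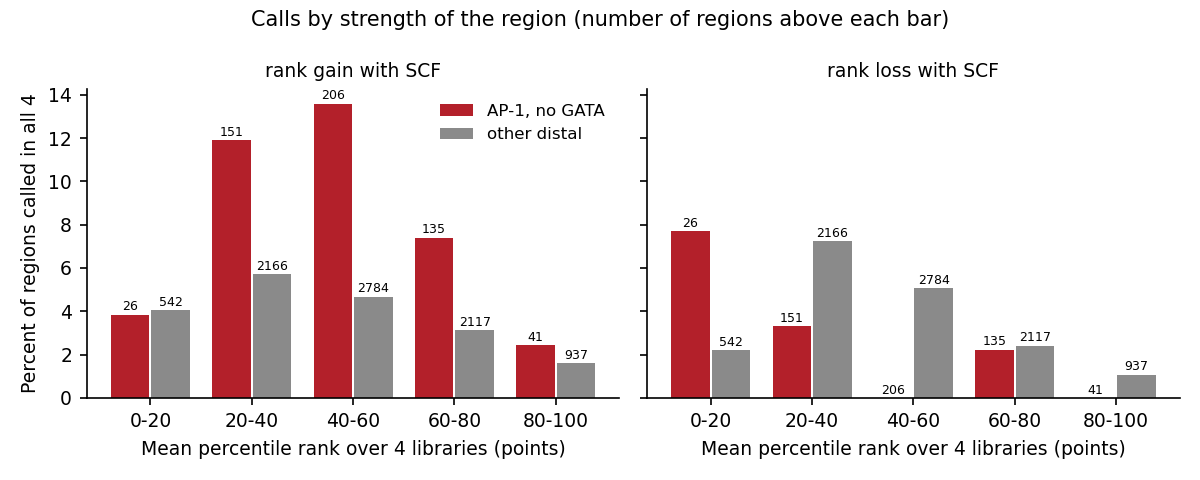
Percent of regions with a rank gain (left) or loss (right) with SCF among those that all 4 libraries called, in bins of mean percentile rank, for members and for the other distal regions, with the number of regions above each bar. Members had the higher share of gains in the 3 middle bins (11.9%, 13.6% and 7.41% against 5.72%, 4.67% and 3.12%).

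The windows that chose the members were centred on the strongest peak, which came from PBS replicate 1 in 223 members, PBS replicate 2 in 422, SCF replicate 1 in 357 and SCF replicate 2 in 727. When the summit was instead taken from the strongest PBS peak, 45 of 521 regions gained rank (8.64%, against 4.53% of distal regions). Rank was lost by 10 (1.92%, against 4.18%), and the median difference was 3.76 points. From the strongest SCF peak, 58 of 579 regions gained rank (10.02%, against 4.56% of distal regions). Losses numbered 18 (3.11%, against 4.19%), a share nearer the distal one than with the PBS-peak summits. The median difference was then 3.17 points.

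Across subsets of members the counts went as follows, none of these differences having been tested. The shares of all distal regions to set beside them were 2.23% SCF-only, 3.04% PBS-only, 4.56% gains and 4.18% losses. Members with C or G only had 65 SCF-only and 27 PBS-only calls among 1277 (5.09% and 2.11%). They had 47 gains and 6 losses among 420 (11.2% and 1.43%). Members with A or T only had 12 and 12 among 401 (2.99% each), and 10 gains and 4 losses among 122 (8.20% and 3.28%). The median rank difference was 3.88 points in the first set and 1.24 in the second. With the word within 20 bp of the summit, C or G members gained in 13 of 71 cases (18.3%) and lost in 1.

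Members with the extended, NF-E2-type word had 14 SCF-only and 4 PBS-only calls among 199 (7.04% and 2.01%). They had 8 gains (11.8%) and 0 losses among 68. Members with 2 words gained in 10 of 74 cases (13.5%) and those with 1 word in 47 of 479 (9.81%). The 47 members with an EGR word had 5 gains (20.8%) and 0 losses among the 24 called in all 4 libraries. Those with a TEAD word (GGAATG) had 4 gains and 2 losses among 70 (5.71% and 2.86%), near the distal shares. Members without a GATA word anywhere in the region had 33 gains and 2 losses among 284 (11.6% and 0.704%). Those with one outside the window had 25 and 8 among 275 (9.09% and 2.91%). In exons, 12 of 122 members were called only with SCF and 0 only with PBS (9.84% and 0%, against 2.80% and 2.21% of distal regions in exons). In introns the counts were 45 and 27 of 1042 (4.32% and 2.59%, against 2.17% and 3.01%), and between genes 23 and 15 of 565 (4.07% and 2.65%, against 2.22% and 3.27%).

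The 20 members with 3 or more words were scattered over the strength range. Only 6 of them were called in all 4 libraries, and in 4 of these both SCF ranks lay above both PBS ranks. The region near PTPRN2 (chr7:157725964-157726223, in its intron) held 6 words in a tandem array, 34 bp apart except for the last spacing of 30 bp, and was called in SCF replicate 2 alone, at a rank of 7.92 points. The region near DBNDD1 (chr16:90061234-90062548) also held 6 words, and its ranks of 52.2 and 56.9 with PBS and 47.9 and 53.7 with SCF overlapped. Over members called in all 4 libraries, the median rank difference was 3.502 points with 1 word, 5.29 with 2 and 18.3 with 3 or more, the last over 6 regions.

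The widest gain was at a region 5.47 kb from the start of CRTAM (chr11:122727259-122727847, intron), a gene of activated lymphocytes. It ranked 15.7 and 26.5 with PBS and 55.4 and 96.1 with SCF. Its summit pileup was 8 and 11 fragments with PBS and 16 and 33 with SCF, so both SCF values were higher but far apart. In limma the log2 difference in fold enrichment was 1.26 ± 0.27 (SE, adjusted p = 0.516).

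The region at RAP1A (chr1:112135071-112136142, intron, 26.7 kb from the nearest protein-coding start) ranked 62.6 and 56.1 with PBS and 90.0 and 94.2 with SCF. RAP1A is a small GTPase of the RAS family. Its summit pileup rose from 28 and 27 fragments to 43 and 50 although both SCF libraries were shallower than both PBS libraries. It had the smallest p-value of any member in limma (8.29e-05, adjusted p = 0.516), with a log2 difference of 0.82 ± 0.15 (SE).

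The region 2.36 kb from ITGB3 (chr17:45365848-45366502, intron) ranked 13.4 and 35.2 with PBS and 68.8 and 61.0 with SCF. ITGB3 encodes integrin beta 3, a subunit of the platelet fibrinogen receptor. The replicates within PBS differed by more than those within SCF, and the treatments did not overlap (log2 difference 0.88 ± 0.23, SE, limma adjusted p = 0.592).

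The region near MTAP (chr9:21789578-21789929, between genes) ranked 51.6 and 47.5 with PBS and 78.1 and 77.0 with SCF, with close replicates on both sides. The region near BACH2 (chr6:91078519-91079187, between genes, 72.4 kb from its start) ranked 42.1 and 37.98 with PBS and 63.6 and 81.2 with SCF. BACH2 is itself a leucine zipper protein that represses genes through the extended AP-1 word. The region near MIDEAS (chr14:74207883-74209032, intron), a gene for a subunit of a histone deacetylase complex, ranked 43.5 and 42.1, and 64.7 and 65.4.

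Gains at ABCC4 (chr13:95895405-95895906, intron), a nucleotide exporter, went from 18.7 and 29.1 to 53.0 and 56.7 points. At STXBP5 (chr6:147482975-147483527, intron of an antisense gene) they went from 31.3 and 28.9 to 54.0 and 72.9. The TBC1D31 region ranked 26.9 and 39.1 with PBS and 64.0 and 63.2 with SCF, and the PLAG1 region 12.5 and 35.3, and 65.0 and 57.8. All 10 held words with C or G alone, and their limma adjusted p-values lay between 0.516 and 0.690. Of all 58 gains, 47 had C or G only (81.0%, against 75.1% of members called in all 4 libraries) and 10 had A or T only.

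The widest loss was at a region near DNAJB12 (chr10:74068044-74068577, between genes), which ranked 41.2 and 34.7 with PBS and 4.87 and 13.9 with SCF. The region near NDFIP1 (chr5:141524838-141525343, intron) ranked 36.4 and 43.1, and 16.9 and 7.92. The WTIP region (chr19:34992281-34992906, exon) ranked 79.4 and 76.3, and 49.4 and 58.2. Those of TMEM241 and H4C13 completed the 5, and 3 of the 5, at NDFIP1, WTIP and H4C13, had A or T in the middle of the word. Of all 10 losses, 6 had C or G only (60%) and 4 had A or T only. Among members called in all 4 libraries 75.1% had C or G only.

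The strongest members kept their place. The region near NTN5 (chr19:49164038-49164716, intron of SEC1P) ranked 99.6 and 99.8 with PBS and 99.5 and 99.7 with SCF, with fold enrichments of 20.5 and 21.5 with PBS and of 20.03 and 20.3 with SCF. Those of FRK, CMPK2, PARD3B and TNIK followed, with ranks from 90.1 to 99.5 in every library. Of the 5, only the PARD3B region, with 3 words, had both SCF ranks (95.7 and 96.3) above both PBS ranks (92.9 and 93.7).

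Among members called only with SCF, the strongest lay near TMEM245 (chr9:111798135-111798605, exon), at ranks of 65.4 and 53.8 in the SCF libraries. The next lay near NPTN (chr15:73856693-73856987, intron, 1.02 kb from its start), at 56.3 and 61.5, with the word 1 bp from the summit. Those near PCDH7, AKIRIN2 and XIAP ranked between 50.9 and 59.7. The summit pileups of these 5 were 12 to 18 fragments, and the median over all members called was 14 and 13 in the respective SCF libraries. The strongest PBS-only member, near TLR10 (chr4:38732481-38732897), ranked 43.5 and 56.9 in the PBS libraries, and those near SEC61G and VWA5A ranked between 36.4 and 51.3.

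**Figure D5:**
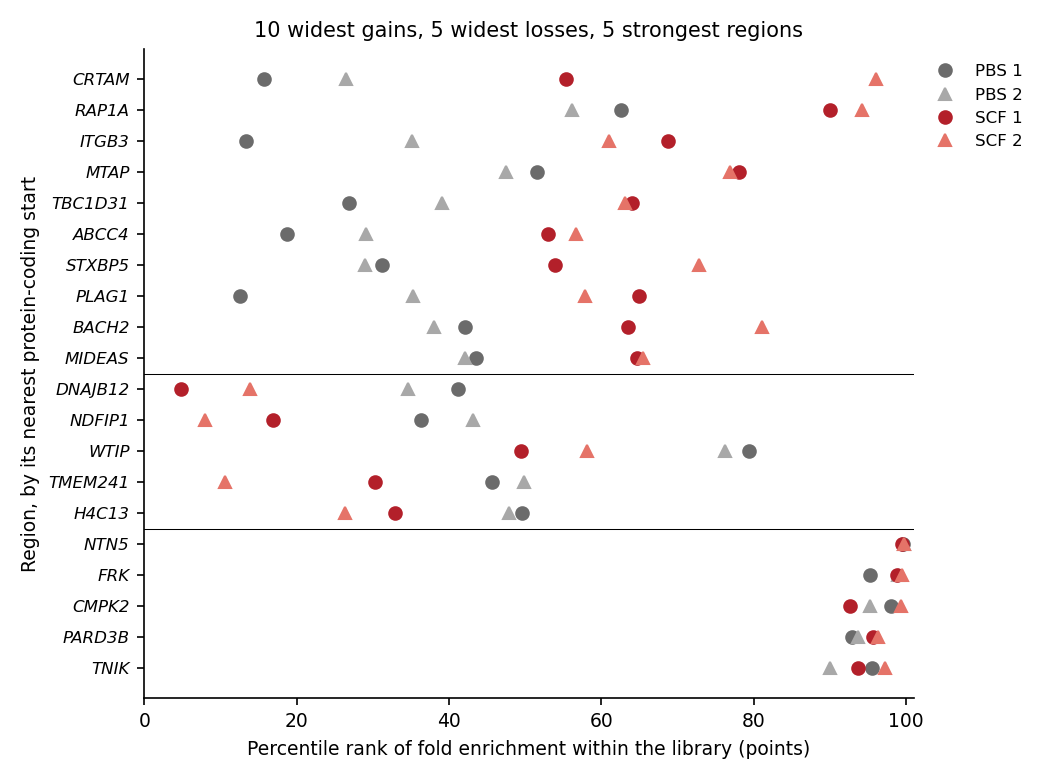
Percentile rank of fold enrichment within each library (points) for the 10 members with the widest rank gain, the 5 with the widest loss and the 5 strongest, from top to bottom, each named by its nearest protein-coding start, with PBS libraries in grey and SCF libraries in red. The RAP1A region sits at 62.6 and 56.1 with PBS and 90.0 and 94.2 with SCF, and the strongest 5 stay at 90.1 or higher.

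No member passed the threshold in the limma test over the 22355 regions called in all 4 libraries. At an adjusted p under 0.05, 0 members were higher and 0 were lower with SCF, as were 0.0% of all regions, and the lowest adjusted p was 0.516. At an unadjusted p under 0.05, 57 members (10.2%) were higher and 9 (1.61%) lower. The same shares were 5.62% and 3.95% of distal regions, and 3.43% and 3.39% of all regions. The median log2 difference in fold enrichment was 0.10 over members, 0.020 over distal and −0.0028 over all regions, with a median SE of 0.22 for a single member. For regions with both words it was 0.15, with 77 higher (14.3%) and 5 lower (0.929%) at an unadjusted p under 0.05. With 1 library left out, the threshold was passed by the CRTAM region (without PBS replicate 1, PBS replicate 2 or SCF replicate 1, adjusted p from 0.0023 to 0.0194), the RAP1A region (without PBS replicate 1, 0.0141) and a region near CCDC91 (without PBS replicate 2, 0.0387), all higher, and by 1 region on chromosome Y that was lower (without PBS replicate 1). Over all 22932 to 24094 regions tested in these fits, 8 were higher and 4 lower without PBS replicate 1, 8 and 1 without PBS replicate 2, 2 and 2 without SCF replicate 1, and 0 and 9 without SCF replicate 2. CCDC91 and the region on chromosome Y were named after their values were seen.

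Members near genes of the Kit pathway and of the blood lineages were about as frequent as elsewhere. Within 50 kb of a start of 116 genes on 7 lists there were 436 distal regions, of which 25 were members (5.73%, against 6.68% of all distal regions). Of these 13 were called in all 4 libraries, 2 gained rank, and 0 lost it, against 14 and 10 of the 212 distal regions near these genes that all 4 libraries called. Of the 25, 0 were called only with SCF and 0 only with PBS, against 7 (1.61%) and 11 (2.52%) of the 436, a number of members too small to read a difference from.

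Of the 19 genes for AP-1 and related leucine zipper proteins, 4 had a member within 50 kb. The one 28.2 kb from FOSB ranked 65.2 and 53.0 with PBS and 61.3 and 57.8 with SCF, so the treatments overlapped. A second one, 12.1 kb from FOSB (chr19:45958819-45959680) and named after its values were seen, ranked 20.01 and 27.8, and 37.4 and 34.2, higher in both SCF libraries by less than 10 points. The member 17.2 kb from MAFK and the one 15.1 kb from ATF3 were called in 3 libraries each. Another member, 1.86 kb from ATF3, was called in SCF replicate 2 alone, and the one near MAFF in SCF replicate 1 alone. Both were named after their values were seen. Of the 18 immediate early genes, 4 had a member. The one 23.2 kb from EGR1, the zinc finger gene induced by growth factors (chr5:137824041-137824505), ranked 37.4 and 44.9 with PBS and 48.3 and 65.2 with SCF, above both PBS ranks but by less than 10 points (log2 difference 0.38 ± 0.22, SE, limma adjusted p = 0.766). The one 49.8 kb from NR4A1, a nuclear receptor gene, ranked 55.1 and 51.9, and 54.9 and 42.1. The one 33.4 kb from EGR3 ranked 56.6 and 18.5, and 34.7 and 50.1. Both of these overlapped between treatments.

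Of 12 genes for MAPK feedback, 1 had a member, 12.5 kb from DUSP2, a phosphatase that switches off MAP kinases. It ranked 38.3 and 38.9 with PBS and 26.8 and 56.3 with SCF. Of 21 genes for Kit, JAK-STAT and PI3K signaling, 3 had one. The member 31.9 kb from LYN, a SRC family kinase that Kit engages, ranked 73.6 and 62.8, and 50.9 and 82.8. The one 35.6 kb from PIM1, a kinase gene induced by STAT5, ranked 27.0 and 23.03, and 29.96 and 9.84. All 3 overlapped between treatments.

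Of 23 genes for erythroid factors and products, 5 had a member. The one in an intron of TFRC, the transferrin receptor (chr3:195749065-195750009), ranked 76.7 and 71.3 with PBS and 58.7 and 63.5 with SCF, lower in both SCF libraries by less than 10 points. The one at ANK1, the membrane skeleton protein ankyrin (chr8:41649633-41650432), ranked 45.4 and 46.0, and 49.9 and 62.9, higher in both. The one 21.1 kb from EPB41, which encodes another membrane skeleton protein, ranked 57.8 and 57.4, and 73.3 and 44.9, and overlapped. Neither the TFRC nor the ANK1 region passed the limma threshold (adjusted p of 0.778 and 0.865).

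The 2 members near the 12 megakaryocyte genes were both rank gains. One was the ITGB3 region above. The other lay 43.2 kb from a start of VWF, the von Willebrand factor, and nearest to CD9, a tetraspanin of platelets (chr12:6276913-6277406, between genes), and held 2 words. It ranked 13.3 and 32.7 with PBS and 52.3 and 65.5 with SCF (log2 difference 0.78 ± 0.23, SE, limma adjusted p = 0.640). Of the 19 distal regions near these genes that were called in all 4 libraries, 5 gained rank, 2 of them members. The 2 members near the 12 myeloid and mast cell genes, at CEBPA and CEBPE, were not called in all libraries.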

How the data were processed

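ATAC-seq peak lists of 4 sgControl libraries were used, 2 with PBS and 2 with SCF, grouped by the labels. Per the labels and the study's methods, the authors made paired-end reads and processed them with the ENCODE pipeline for ATAC-seq, and the submitters' processing notes name bcl2fastq, Bowtie2 and SAMtools without versions. The deposited lists hold 1 library each and give for each peak the fold enrichment over local background (a ratio), the −log10 p and q of the summit and a score. The score was not used. The highest deposited q-value in a list was near 0.0497, so weaker sites are missing from it. The methods name hg38, but the series' description and the lists give hg19, and 0 of 24 chromosomes had a peak beyond its hg19 end, so GRCh37 and GENCODE release 44 mapped to it were used. Peak names carry other replicate numbers than the labels, and the labels were followed. The sgEGR1 samples were not analysed here.

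Lists were merged at 1 bp, and 235 peaks on other contigs were left out. Fold enrichment was ranked within each list. limma 3.58.1 (R 4.3.3) was fitted, with a trend, to quantile-normalized log2 fold enrichment over all regions called in all 4 libraries, after the code was tested on simulated data, with Benjamini-Hochberg adjustment and two-sided p-values. Pileup was recovered from fold enrichment and −log10 p, and came out whole to a relative error of 0.0001 in 99.7% or more of peaks. Total read numbers are unknown, so no counting interval is given. Sequences were read from GRCh37 with pysam 0.24.0. Alternatives were the window, merging, ranking, gap, q threshold, word definitions, summit and each library left out.

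The members and gene lists were chosen with earlier results of these data known. Members named in the text were the 10 with the widest gain, the 5 with the widest loss, the 5 strongest, the 5 strongest SCF-only and 3 PBS-only ones. Also named were any past the limma threshold, those with 3 or more words, and members within 50 kb of listed genes. Near a listed gene the member with the highest mean rank was taken, for at most 3 genes a list.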

Additional observations from a re-analysis of the deposited data

How the results depend on the processing

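Members exceeded distal regions in the share of gains in 16 of 16 alternatives that kept all 4 libraries, and in SCF-only calls in 10 of 10, and lay below them in losses and PBS-only calls in all of these. The median rank difference stayed between 2.63 and 4.78 points in 13 alternatives. With a window of 50 bp there were 1081 members, 53 SCF-only calls, 6 losses and a difference in share of distal calls of 0.539 percentage points, against 0.873. With 250 bp there were 65 PBS-only calls and a share difference of 1.02. With a stricter q there were 1089 members, 49 SCF-only calls and 1.05. With equal numbers of peaks the share difference was 1.00. Ranking by −log10 p gave 6 losses. A gap of 5 points gave 101 gains and 26 losses, and one of 20 points 13 and 1.

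Alternatives chosen after seeing the data followed. Ranks among distal regions gave 16 losses and SCF-peak summits 18. With no GATA core in the window there were 898 members, 42 SCF-only and 25 PBS-only calls, 32 gains and a share difference of 0.366. With no GATA word in the whole region there were 1141 members, 33 gains, 2 losses and 0.682. For equal numbers of distal peaks the density difference was 0.0114 per kb for words with A or T and 0.0314 for GATA, whose libraries then overlapped.

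With 1 library left out a call asks fewer libraries, so counts rise by construction. Without PBS replicate 1, PBS replicate 2, SCF replicate 1 and SCF replicate 2, in this order, SCF-only calls numbered 131, 164, 334 and 192, and PBS-only calls 225, 117, 78 and 116. Gains numbered 117, 147, 177 and 96, and losses 46, 31, 50 and 77. SCF-only calls thus fell below PBS-only calls without PBS replicate 1. The share difference ranged from 0.788 to 0.958, and the median rank difference from 1.85 to 6.50. In limma 0 to 2 members were higher and 0 to 1 lower, of 0 to 8 and 1 to 9 among all regions, the lone library being assumed to vary like the others. With the replicate block limma called 0 members higher and 0 lower (62 and 11 at an unadjusted p under 0.05), and the numbers did not pair the libraries (correlation of deviations 0.0114). Sites under the q threshold, and small changes at 13 to 16 fragments per median member summit, are beyond this depth.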
